A study of Mus musculus with 34 samples.

Results

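The collagen genes described here are the genes whose mouse symbol consists of Col, a number, the letter a and a number. The RefSeq gene table held 44 such symbols, and 38 of them were matched to a probe on the array, out of 33370 gene names measured in all. The 6 without a matched probe (Col6a3, Col6a4, Col6a5, Col12a1, Col20a1 and Col22a1) were not analysed here. Where a gene had more than 1 probe, its brightest probe on average was used. Members were taken by symbol only, whatever their values, though this group of genes was chosen with earlier results of these data known.

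Collagens are proteins of triple helices, each built from chains that separate genes encode, and they make up much of the matrix between cells. Fibrillar collagens form the fibres of connective tissue, network collagens such as type IV form the sheet of basement membranes, and FACIT collagens sit on the surface of fibrils. Multiplexins lie at basement membrane zones, and transmembrane collagens are anchored in the cell's own membrane. In the testis, Sertoli cells and the surrounding peritubular myoid cells lay down the basement membrane of the seminiferous tubule, and germ cells pass through a repeating series of stages inside it.

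RNA from mouse testis was measured on 34 single-colour Agilent arrays, in 17 groups of 2 samples that the submitters call biological duplicates. The study asked how gene expression in Sertoli cells changes with the stage of the tubule and with retinoic acid. All mice were of the strain C57BL6/j and 6 to 8 weeks old. The 5 groups outside the tubules were whole testes, Sertoli cells sorted by flow cytometry from wild-type (WT) testes, Sertoli cells sorted in the same way from Nanos3 knockout (N3KO) testes, and WT Sertoli cells in culture with vehicle or with retinoic acid (RA). RA was given for 24 hours at 1 mM, a concentration that stands in the labels and could not be checked. The 12 tubule groups were 4 stage groups (I-III to IX-XII, with IV-VI and VII-VIII between them) in each of 3 arms. These arms were untreated tubules, tubules from testes injected with a lentivirus for Venus, a fluorescent protein that served as the control, and tubules from testes injected with a lentivirus for dnRARa, a receptor for retinoic acid (RAR alpha) altered so that it blocks the normal one. Tubules of the virus arms were taken 5 days after injection. The stage group called VII-VIII here is written both VI-VIII and VII-VIII in the labels. The marker used for sorting, the promoter and the cells reached by the virus, and the number of animals behind a sample are not given in the sources used here, so p-values measure the spread between these samples only.

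A level below is the log2 processed signal of a probe minus the 75th percentile of its array, so that 0 is the 75th percentile. A difference is between the means of such levels, in log2 units, with its standard error (SE) from the fit, and n = 2 arrays in each group. Differences were tested with limma and adjusted by the Benjamini-Hochberg method over all genes tested in that comparison, with a threshold of 0.05 on the adjusted p. "Rose" and "fell" are used for differences past it. Levels of different genes come from different probes and were not compared with each other.

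The array set gave 54.89% to 74.42% of spots well above background, and replicate arrays correlated between 0.9735 (sorted N3KO cells) and 0.9957 (cultured cells with RA) over genes. Nanos3, the gene knocked out, was at 1.3 and 1.28 in whole testes, at -3.19 and -4.41 in sorted WT cells and at -7.03 and -7.19 in sorted N3KO cells, where it was not well above background. The labelled cell type was checked against marker genes, summed over those measured on all arrays on the linear scale with an array's 75th percentile as 1. The Sertoli markers summed to 15.9 in whole testes, 29 to 40.8 in sorted WT cells, 54.4 to 94.9 in sorted N3KO cells and 86.7 to 86.9 in cultured cells with vehicle. The markers of Leydig cells, which make testosterone outside the tubules, were at 203 to 207 in whole testes and at 1960 to 2040 in the cells sorted as WT Sertoli cells. They were at 780 to 1190 in N3KO cells and at 11.7 to 12.7 in cultured cells with vehicle. The samples labelled as sorted Sertoli cells therefore held more Leydig cell transcript per array than whole testes did, and each collagen difference that involves them stands beside that fact. The 7 endothelial markers summed to 2.36 to 2.39, 20.2 to 29.2, 7.36 to 28.4 and 0.74 to 0.756 in the same 4 groups. In bulk samples, fewer cells of a type and less RNA per cell cannot be told apart. Arrays lay on 10 slides: whole testes and sorted WT cells shared a slide, N3KO cells had their own, the cultured cells shared another, and the untreated stages I-III and IV-VI each had their own while VII-VIII and IX-XII shared theirs. Comparisons between those slides cannot be told apart from the slide. Whole testes and sorted cells were scanned on day 1, untreated tubules on day 2 and cultured cells on day 3. Comparisons between these sets cannot be told apart from the scan day either. In the virus arms, each slide held all 4 stages of 1 arm and 1 replicate.

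Of the 38 collagen genes, 21 were well above background on all 34 arrays. Col10a1, the network collagen of growth plate cartilage, and Col6a6, a chain of type VI collagen, were each above background on 1 array and were tested in no comparison. The other 36 were tested at least once, and each was past the threshold in at least 1 of the 11 planned comparisons.

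**Figure D1:**
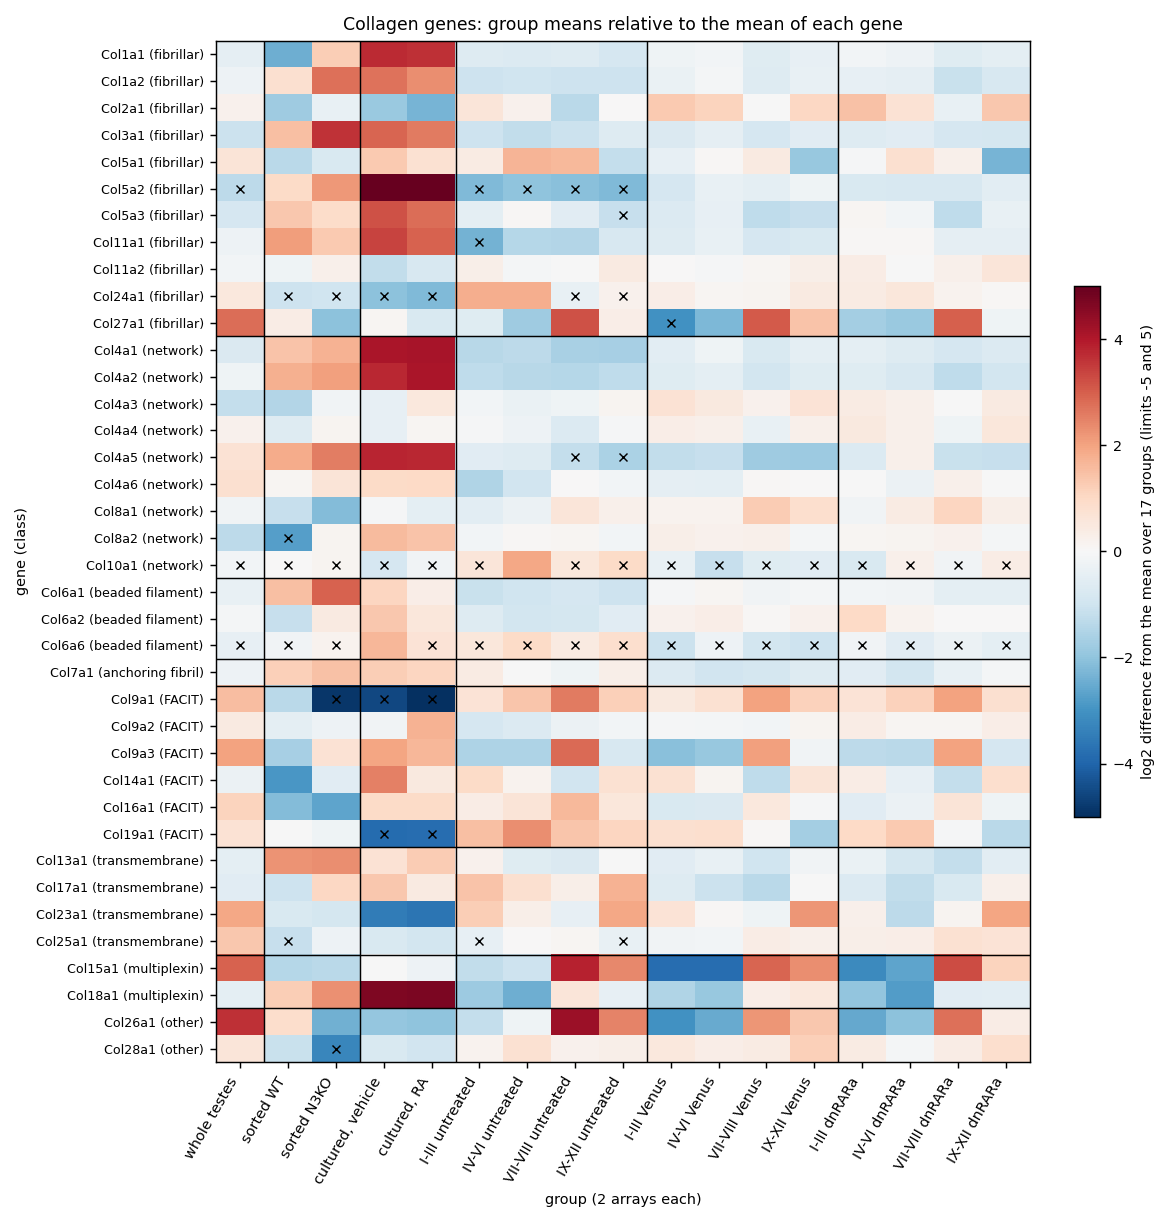
Each row is 1 of the 38 collagen genes, ordered by class, and each column is 1 of the 17 groups; the colour is the group mean minus the mean of that gene over the groups (log2, limits -5 and 5), and a cross marks groups in which neither array was well above background. Col15a1, Col26a1, Col27a1 and Col9a3 were high in VII-VIII tubules of all 3 arms, and Col1a1, Col4a1, Col4a2, Col5a2 and Col18a1 were high in the cultured cells.

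A set of collagens followed the stage of the tubule, with large changes between stages IV-VI and VII-VIII, the latter being the stages at which mature spermatids are released. The steps from IX-XII to I-III and from I-III to IV-VI were not tested. Col15a1, Col26a1, Col27a1, Col9a3 and Col18a1 were several-fold higher in VII-VIII than in IV-VI tubules in each of the 3 arms. Col2a1, Col14a1 and Col4a4 were lower in VII-VIII in each arm. The chains of type I collagen and Col4a1 and Col4a2 did not pass the test over the untreated stages.

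In untreated tubules 17 of 32 collagen genes tested passed the moderated F test over the 4 stage groups, a share of 53.1% beside 69.1% of all genes tested. The corresponding counts were 16 of 36 in Venus tubules (background 54%) and 17 of 36 in dnRARa tubules (background 55.2%). Stage differences were thus no more frequent among the collagens than among genes in general. For VII-VIII against IV-VI, 14 of 32 collagens passed in untreated tubules (9 higher and 5 lower, background 42.3%, of which 22% higher and 20.3% lower), 12 of 36 in Venus tubules (8 and 4, background 33.1%, of which 15.6% and 17.5%) and 16 of 35 in dnRARa tubules (10 and 6, background 31.7%, of which 16.9% and 14.8%). This comparison and the F tests in the virus arms were added after the values had been seen. Untreated IV-VI and VII-VIII lay on different slides, whereas in the virus arms both stages of a replicate lay on 1 slide.

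Promoter windows of 4 members that moved with stage or differed between the virus arms are shown so that the letters before their start sites can be read. Each is the 250 bases before the RefSeq start site on build GRCm38.p6, 5' to 3' on the gene's strand. Capitals mark the letters AGGTCA, the core to which retinoic acid receptors and other nuclear receptors bind, or GGGCGG, a GC box, on either strand (read as TGACCT or CCGCCC where it lies on the other strand). The windows are Col15a1 at chr4:47207762-47208011 (plus strand), Col27a1 at chr4:63215162-63215411 (plus), Col18a1 at chr10:77166531-77166780 (minus) and Col23a1 at chr11:51289670-51289919 (plus).
Col15a1: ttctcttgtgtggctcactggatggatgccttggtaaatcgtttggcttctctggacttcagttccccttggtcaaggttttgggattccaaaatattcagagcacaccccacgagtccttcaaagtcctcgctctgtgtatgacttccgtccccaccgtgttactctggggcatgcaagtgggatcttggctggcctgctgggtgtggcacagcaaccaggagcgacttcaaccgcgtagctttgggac
Col27a1: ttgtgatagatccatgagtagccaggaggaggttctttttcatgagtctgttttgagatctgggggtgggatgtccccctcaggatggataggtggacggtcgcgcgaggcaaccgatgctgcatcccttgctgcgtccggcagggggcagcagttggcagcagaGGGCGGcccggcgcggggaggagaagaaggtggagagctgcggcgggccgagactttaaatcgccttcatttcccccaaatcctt
Col18a1: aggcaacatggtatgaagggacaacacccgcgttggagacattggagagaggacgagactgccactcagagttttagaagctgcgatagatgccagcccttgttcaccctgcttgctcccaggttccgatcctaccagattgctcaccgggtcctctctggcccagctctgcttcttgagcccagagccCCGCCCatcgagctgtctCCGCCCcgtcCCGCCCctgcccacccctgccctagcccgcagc
Col23a1: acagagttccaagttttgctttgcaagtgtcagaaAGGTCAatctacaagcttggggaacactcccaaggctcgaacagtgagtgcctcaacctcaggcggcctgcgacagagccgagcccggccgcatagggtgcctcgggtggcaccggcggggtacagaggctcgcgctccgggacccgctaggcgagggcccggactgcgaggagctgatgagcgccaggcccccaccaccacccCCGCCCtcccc
The Col15a1 window held neither motif. The Col27a1 window held GGGCGG once, 85 bases before the start, and the Col18a1 window held it 3 times on the other strand, at 61, 43 and 33 bases. The Col23a1 window held AGGTCA at 215 bases and a GC box at 11 bases before the start. A second Col18a1 start site, with a window at chr10:77113706-77113955, held neither. Over the 34 windows of the 31 collagen genes with an entry, 6 (17.6%) held AGGTCA and 20 (58.8%) held GGGCGG, beside 14% and 32.7% of all 32851 windows of the same length. The direct repeat of AGGTCA with 5 bases between the copies was in 0 of the 34 and in 0.00913% of all windows. CCAAT was in 35.3% of the collagen windows and 33.8% of all, TATAAA in 14.7% and 12.4%, and AGAACA in 2.94% and 16.1%, each on both strands. No match says only that those letters are not in that window.

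Col15a1, a multiplexin of basement membrane zones, was at 0.88 and -3.51 in untreated I-III, 0.36 and -2.58 in IV-VI, 3.8 and 3.74 in VII-VIII, and 2.1 and 2.55 in IX-XII tubules. In Venus tubules the pairs were -3.75 and -4.05, -4.12 and -3.64, 2.73 and 2.92, then 2.26 and 2.2. In dnRARa tubules they were -2.15 and -4.36, -2.52 and -2.9, 2.99 and 3.4, then 1.2 and 0.85. All arrays of the later stages lay above all arrays of the earlier ones in each arm, while replicate 1 of untreated I-III and IV-VI lay well above its partner. The rise from IV-VI to VII-VIII was 4.89 ± 1.07 (SE, adjusted p = 0.00196, limma, 29.6-fold) untreated, 6.7 ± 1.09 (adjusted p = 0.000277, 104-fold) with Venus and 5.91 ± 1.08 (adjusted p = 0.000758, 60.1-fold) with dnRARa. Within the slides it was 6.84 and 6.56 with Venus and 5.52 and 6.3 with dnRARa.

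Col26a1, a collagen known from testis and ovary, was also highest in VII-VIII. Its untreated levels were -0.79 and -4.75, -0.64 and -2.98, 2.86 and 2.51, then 0.66 and 1.11 from I-III to IX-XII. Replicate 1 was again the higher array of I-III and of IV-VI, and 1 of the 2 arrays of I-III was well above background. In Venus tubules it was at -4.47 and -4.75, -4.52 and -3.65, 0.36 and 0.93, then -0.23 and -0.23, so that early and late stages did not overlap. It rose from IV-VI to VII-VIII by 4.49 ± 0.91 (adjusted p = 0.00112) untreated, 4.74 ± 0.93 (adjusted p = 0.00116) with Venus and 4.81 ± 0.92 (adjusted p = 0.00108) with dnRARa (SE, limma).

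Col27a1, a fibrillar collagen with a short helix known from cartilage, was highest in VII-VIII and close to background in the early stages. Its untreated levels were -3.86 and -5.53 in I-III, -4.29 and -7.39 in IV-VI, -0.84 and -0.92 in VII-VIII, and -3.4 and -4.09 in IX-XII. In untreated I-III and IV-VI 1 of 2 arrays was well above background, and in Venus I-III 0 of 2 were. The 2 arrays of VII-VIII stood above all 6 others. The rise from IV-VI to VII-VIII was 4.96 ± 0.82 (adjusted p = 0.000227) untreated, 5.31 ± 0.84 (adjusted p = 0.000213) with Venus and 4.83 ± 0.83 (adjusted p = 0.000466) with dnRARa (SE, limma).

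The 3 chains of type IX collagen, a FACIT of cartilage fibrils, did not move alike. Col9a3 was at -2.18 and -4.63, -3.11 and -3.69, 1.07 and 0.92, then -2.02 and -3.31 in the untreated stages, with VII-VIII above the rest. It rose from IV-VI to VII-VIII by 4.39 ± 0.56 (adjusted p = 2.59e-05, 21-fold) untreated, 3.97 ± 0.57 (adjusted p = 0.000104, 15.6-fold) with Venus and 3.33 ± 0.57 (adjusted p = 0.000447, 10.1-fold) with dnRARa. Col9a1 was at -1.8 and -2.12, -1.13 and -1.42, 0.08 and -0.19, then -1.41 and -1.47 in the untreated stages. It was highest in VII-VIII on every array, and rose there by 1.22 ± 0.18 (adjusted p = 7.26e-05) untreated, 1.24 ± 0.18 (adjusted p = 0.000105) with Venus and 0.84 ± 0.18 (adjusted p = 0.00219) with dnRARa. Col9a2 passed the F test in untreated tubules (adjusted p = 0.00334) but was not past the threshold for VII-VIII against IV-VI in any arm.

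**Figure D2:**
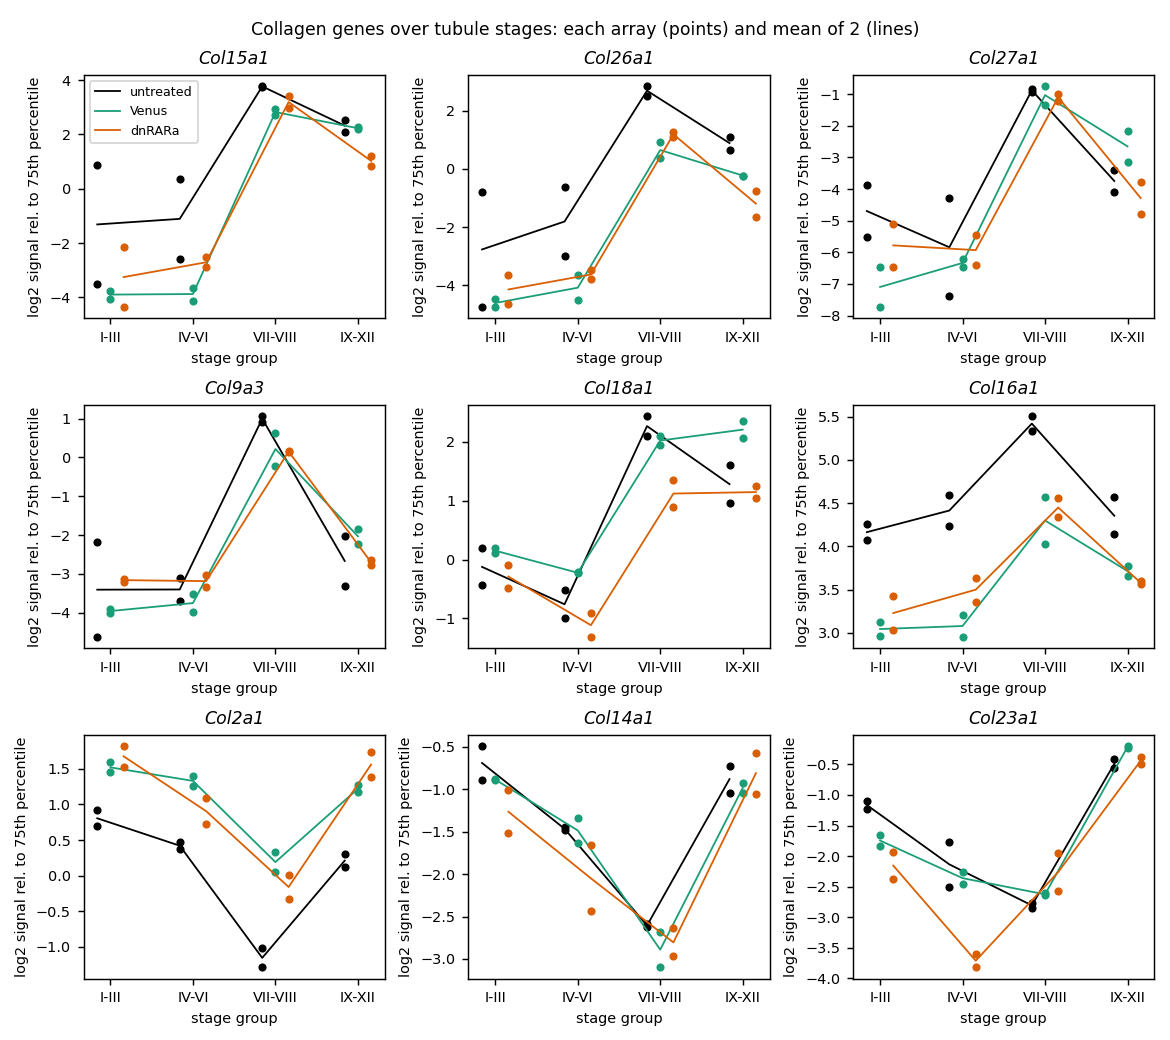
Each panel plots the log2 level relative to the array's 75th percentile (vertical axis) of 1 collagen gene in 4 stage groups (horizontal axis) of untreated (black), Venus (green) and dnRARa (orange) tubules, with 1 point per array and a line through the means of 2. The first 6 genes peak at or after VII-VIII, Col2a1 and Col14a1 are lowest there, and Col23a1 is lowest in VII-VIII of untreated tubules but in IV-VI of dnRARa tubules.

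Col18a1, the other multiplexin and the source of the fragment endostatin, was at 0.19 and -0.44 in untreated I-III, -0.52 and -1 in IV-VI, 2.09 and 2.44 in VII-VIII, and 0.96 and 1.6 in IX-XII. Each later-stage array lay above each earlier-stage array. It rose from IV-VI to VII-VIII by 3.02 ± 0.26 (adjusted p = 8.58e-07, 8.13-fold) untreated, 2.24 ± 0.27 (adjusted p = 1.95e-05, 4.73-fold) with Venus and 2.24 ± 0.26 (adjusted p = 2.25e-05, 4.71-fold) with dnRARa. From VII-VIII to IX-XII it fell by 0.98 ± 0.26 (SE, adjusted p = 0.00565) in untreated tubules and did not pass the test in Venus tubules, where it stood at 2.09 and 1.95, then 2.35 and 2.06. The difference between the arms in that step was not tested.

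Col16a1, a FACIT found near basement membranes, and Col8a1, a short-chain network collagen, moved less. Col16a1 was at 4.24 and 4.59 in untreated IV-VI and at 5.51 and 5.33 in VII-VIII, without overlap. It rose by 1 ± 0.2 (adjusted p = 0.00115) untreated, 1.22 ± 0.21 (adjusted p = 0.000411) with Venus and 0.95 ± 0.21 (adjusted p = 0.00274) with dnRARa. Col8a1 rose by 0.89 ± 0.17 (adjusted p = 0.000577), 1.09 ± 0.17 (adjusted p = 0.000195) and 0.66 ± 0.17 (adjusted p = 0.00748) in the same order (SE, limma). Col4a6, a basement membrane chain that pairs with Col4a5, was at -3.8 and -4.32, -3.37 and -3.63, -2.47 and -2.55, then -2.76 and -2.57 in the untreated stages and was higher in VII-VIII than in IV-VI by 0.99 ± 0.19 (adjusted p = 0.000646). With Venus that step did not pass, and with dnRARa it was 0.56 ± 0.19 (adjusted p = 0.0344).

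Other collagens were lowest in VII-VIII. Col2a1, the main collagen of cartilage, was at 0.47 and 0.37 in untreated IV-VI, -1.02 and -1.29 in VII-VIII and 0.3 and 0.12 in IX-XII. It fell by 1.58 ± 0.18 (adjusted p = 7.72e-06) into VII-VIII and rose by 1.37 ± 0.18 (adjusted p = 1.55e-05) out of it. The difference into VII-VIII was -1.14 ± 0.18 (adjusted p = 0.000213) with Venus and -1.07 ± 0.18 (adjusted p = 0.000367) with dnRARa. Col14a1, a FACIT that regulates fibril growth, was at -1.48 and -1.45, then -2.59 and -2.62, then -1.04 and -0.72 in the same untreated stages, without overlap. Its differences into VII-VIII were -1.14 ± 0.25 (adjusted p = 0.0022) untreated, -1.4 ± 0.26 (adjusted p = 0.000718) with Venus and -0.75 ± 0.26 (adjusted p = 0.0359) with dnRARa. Col4a4, a network chain that pairs with Col4a3, changed least of the 3, by -0.41 ± 0.14 (adjusted p = 0.0291), -0.61 ± 0.14 (adjusted p = 0.00453) and -0.48 ± 0.14 (adjusted p = 0.0195). Its partner Col4a3 was not past the threshold for this step in any arm.

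Col24a1, a minor fibrillar collagen, was at -4.31 and -3.9 in untreated I-III and -4.42 and -3.78 in IV-VI, and was not well above background on any array of VII-VIII or IX-XII. Against such a group the fold is written as "at least". It uses the dimmest signal of any probe called well above background on those arrays, or the gene's own signal where higher. It refers to the processed signal only and is no bound under another background correction. Col24a1 was at least 3.22-fold lower in VII-VIII than in IV-VI (difference -2.19 ± 0.31, adjusted p = 6.61e-05). With another background correction, called normexp, the late against early difference of Col24a1 was 0.11, of the opposite sign. In the Venus arm, where each slide held all stages, Col24a1 ranged from -6.06 to -5.45 and its stage effect was not past the threshold. In sorted and cultured cells the Col24a1 probe used here did not enter the tests. Its other probe, not tested, differed there by -6.92 in culture against sorted WT cells and by -6.46 against N3KO cells. For sorted WT cells against whole testes that probe gave 1.45. For untreated tubules against whole testes it gave -2.62, against 0.33 (not past the threshold) for the probe used.

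From VII-VIII to IX-XII, 11 of 30 collagens passed in untreated tubules (5 higher and 6 lower, background 49.8%, of which 25.3% higher and 24.5% lower) and 10 of 36 in Venus tubules (5 and 5, background 36.6%, of which 19.1% and 17.5%), a comparison also added later. Col23a1, a transmembrane collagen, was at -2.77 and -2.84 in untreated VII-VIII and at -0.42 and -0.56 in IX-XII. It rose by 2.31 ± 0.22 (adjusted p = 9.43e-07, 4.97-fold) untreated and by 2.41 ± 0.22 (adjusted p = 1.38e-06, 5.31-fold) with Venus. Col17a1, the transmembrane collagen of hemidesmosomes, rose by 1.44 ± 0.21 (adjusted p = 4.07e-05) and 1.35 ± 0.21 (adjusted p = 0.000139). Col5a1, a chain of type V fibrils, was at 2.11 and 1.72 in untreated VII-VIII and -0.45 and -1.36 in IX-XII, and its differences were -2.82 ± 0.34 (adjusted p = 7.93e-06) and -2.37 ± 0.34 (adjusted p = 7.84e-05). Another probe of Col5a1 gave -1.68 and -0.62 for this step, and for late against early stages it gave the opposite sign, 0.45 against -0.85.

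The stage comparisons of untreated tubules also stood beside changes in other cells' markers. The Sertoli markers summed to 15 to 16.2 in I-III, 24.7 to 29.8 in IV-VI, 22.7 to 23.2 in VII-VIII and 11.7 in IX-XII, and Amh was not above background in these stages. The peritubular myoid markers were at 24.7 to 26.5, 17.6 to 18.4, 22.7 to 23 and 30 to 34.4, and the 8 fibroblast and stromal markers lay between 2.44 and 4.8, with Thy1 and Dpt (and in IX-XII also Lum) not above background. Leydig markers ranged from 12.3 to 37.9 and Lhcgr was not above background in these stages. The spermatid sums were 755 to 757, 537 to 594, 684 to 776 and 870 to 1210 from I-III to IX-XII. The macrophage sums were 0.746 to 1.4, 0.889 to 1.61, 0.489 to 0.493 and 0.597 to 0.733. In the F test over the untreated stages 4 of 5 spermatid, 5 of 11 Sertoli, 2 of 8 peritubular myoid, 1 of 6 fibroblast and stromal, 1 of 5 macrophage, 3 of 6 endothelial, 3 of 5 spermatogonial and 2 of 5 spermatocyte markers passed with limma, and the 7 Leydig markers tested did not. Their part in the stage differences was not tested. In Venus tubules the fibroblast and stromal sums were 3.65 to 6.24 in IV-VI and 2.86 to 3.72 in VII-VIII.

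Over the late stages (VII-VIII and IX-XII) against the early ones in untreated tubules, 14 of 32 collagens passed, 10 higher and 4 lower, beside a background of 50.5% of all genes (27.7% higher and 22.8% lower). The median difference was 0.01 over the collagens tested and 0.05 over all genes. With normexp the split was 12 higher and 2 lower. Col18a1 had the smallest adjusted p (2.21 ± 0.19, adjusted p = 4.89e-07), followed among the rises by Col4a6 (1.19 ± 0.13, adjusted p = 5.12e-06). By class, FACIT collagens had 4 higher and 1 lower of 6, network collagens 2 higher of 7, and fibrillar collagens 1 higher and 3 lower of 9. Col1a1 and Col1a2, the chains of type I fibrils, had adjusted p = 0.727 and 0.993 in the F test, Col4a1 and Col4a2, the common basement membrane chains, 0.379 and 0.83, and Col6a1, a beaded filament chain, 0.72. Col1a1 ranged from -0.7 to -0.42 over the 8 untreated arrays.

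Genes that make, hold or cut collagen were read from lists chosen with earlier results of these data known. Of 23 processing enzymes and chaperones tested, 2 rose and 11 fell in late stages, among them Serpinh1, the collagen chaperone HSP47 (1.29 ± 0.15, adjusted p = 7.27e-06), Mia3, which exports procollagen from the endoplasmic reticulum (-1.17 ± 0.11, adjusted p = 9.66e-07), and the prolyl isomerase Fkbp14 (-1.17 ± 0.12, adjusted p = 3.08e-06). Of 9 collagen receptors 3 rose and 2 fell, with Ddr1, a receptor tyrosine kinase for collagen, higher by 1.04 ± 0.17 (adjusted p = 0.000146). Of 11 basement membrane partners 1 rose, the linker Nid1 (1.56 ± 0.18, adjusted p = 5.82e-06), and 2 fell, the laminin chains Lamb3 and Lama1. Of 14 fibril regulators 2 rose and 2 fell, and of 3 degrading enzymes the membrane protease Mmp14 fell by 1.09 ± 0.14 (SE, adjusted p = 1.93e-05).

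The cells sorted as WT Sertoli cells differed from whole testes in most collagens, in both directions. Col4a1, Col4a2, Col18a1, Col5a2, Col5a3 and Col7a1 were higher in the sorted cells. The folds were 2.68-fold to 4.48-fold for the 5 other than Col5a2, which was not well above background in whole testes. Col15a1, Col16a1, Col9a1, Col23a1, Col4a4 and Col28a1 were lower, and the FACIT class had 5 of its 6 tested members lower and 0 higher. In all 29 of 35 collagens passed, 11 higher and 18 lower, beside a background of 79.2% of all genes (39% higher and 40.2% lower), so that passing was common among all genes. The median difference was -0.85 over the collagens and -0.03 over all genes.

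Col4a2 was at -0.37 and -0.44 in whole testes and at 1.72 and 1.44 in sorted WT cells, and Col4a1, its partner in the basement membrane heterotrimer, was at -1.41 and -1.46 against 0.94 and 0.47. The groups did not overlap for either chain. Col4a2 was higher by 1.98 ± 0.14 (adjusted p = 1.36e-05, 3.94-fold) and Col4a1 by 2.14 ± 0.37 (adjusted p = 0.00136, 4.41-fold). Col18a1 was at 1.19 and 1.2 against 2.75 and 3.04, higher by 1.7 ± 0.12 (adjusted p = 1.45e-05, 3.24-fold). Col5a2, a type V chain, was not well above background in whole testes and at -3.5 and -3.56 in sorted cells, at least 4.85-fold higher (adjusted p = 0.000443). Col5a3, another type V chain, was higher by 2.16 ± 0.24 (adjusted p = 0.000137), and Col7a1, the anchoring fibril collagen, by 1.42 ± 0.21 (adjusted p = 0.000577).

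Col15a1 was at 2.8 and 2.95 in whole testes and at -1.17 and -1.87 in sorted WT cells, with a difference of -4.39 ± 0.25 (adjusted p = 6.47e-06, 21-fold lower). Col16a1 was at 4.82 and 4.96 against 1.77 and 1.49 (-3.26 ± 0.26, adjusted p = 2.63e-05, 9.58-fold lower). For both genes the groups were several log2 units apart. Col9a1 was at -1.14 and -1.04 against -3.95 and -4.07 (-2.92 ± 0.25, adjusted p = 3.84e-05), and Col23a1 at -0.47 and -0.47 against -2.98 and -3.36 (-2.7 ± 0.25, adjusted p = 4.85e-05). Col4a4 differed by -0.85 ± 0.1 (adjusted p = 0.000199). Col28a1, a beaded filament-like collagen, differed by -1.71 ± 0.21 (adjusted p = 0.000252), and with normexp by -0.39 (adjusted p = 0.385).

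Chains of the same trimer did not always move together. Col1a1 was at -0.28 and -0.25 in whole testes and at -2.06 and -2.49 in sorted WT cells (-2.01 ± 0.45, adjusted p = 0.00474), whereas Col1a2 was at 2.13 and 2.08 against 3 and 3.33 (1.06 ± 0.65, adjusted p = 0.172). The Col1a1 arrays of the sorted cells lay below those of whole testes, and the Col1a2 arrays lay above. The difference between the chains was not tested. Col6a1 rose by 1.86 ± 0.55 (adjusted p = 0.0169) and Col6a2 fell by 1.05 ± 0.36 (SE, adjusted p = 0.03). Col4a5 rose by 1.13 ± 0.27 (adjusted p = 0.00626). Col4a6 (-0.66, adjusted p = 0.135, with a value on 1 of the 2 whole testes arrays because the other spot was marked an outlier, and with 2.83 from its other probe, of the opposite sign) and Col4a3 (-0.28) did not pass.

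Beside these differences, Leydig markers were higher in the sorted cells in 8 of 8 genes, endothelial markers in 6 of 7, Sertoli markers in 9 of 13 and macrophage markers in 2 of 5, and the 5 spermatid markers were lower in 5 of 5. Fibroblast and stromal markers summed to 7.7 to 7.96 in whole testes and 11.5 to 12.4 in sorted cells, 3 of 8 higher and 2 lower. Of 8 peritubular myoid markers 5 were higher and 2 lower. They summed to 30.9 to 31 in whole testes, where Ptch1 was not above background, and to 19.5 to 26.5 in sorted cells. Tagln was not measured on all arrays and is not in these sums. The part of these cell types in the collagen differences was not tested. Of 9 receptors 6 rose and 2 fell, of 6 degrading enzymes 5 rose, and of 15 fibril regulators 4 rose and 4 fell. Of 28 processing enzymes 22 rose and 3 fell, among them the lysyl hydroxylase Plod2 (4.23 higher) and Creb3l1, a transcription factor for collagen secretion (4.18 higher). Of 13 basement membrane partners 10 rose and 2 fell, among them Lamc1, the common laminin gamma chain (3.47 higher), and Nid2, a basement membrane linker (2.41 higher).

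**Figure D3:**
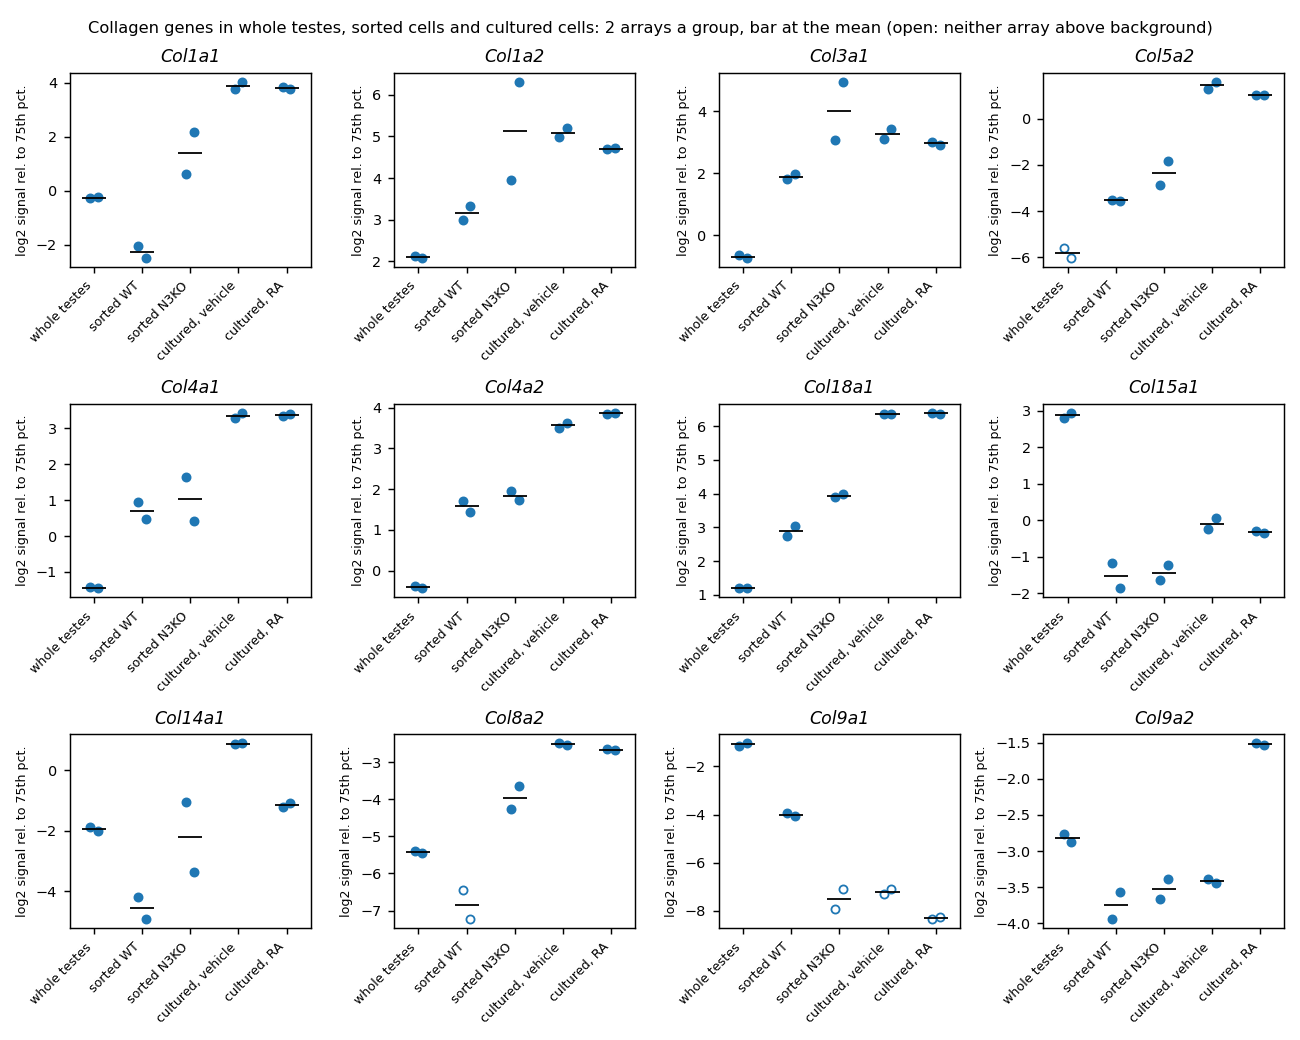
Each panel plots the log2 level relative to the array's 75th percentile (vertical axis) of 1 collagen gene in whole testes, sorted WT cells, sorted N3KO cells and cultured cells with vehicle or RA, with 1 point per array, a bar at the mean of 2, and open points where neither array was well above background. Col1a1, Col5a2, Col4a1, Col4a2 and Col18a1 are highest in the cultured cells, and the 2 N3KO arrays lie far apart for Col1a1, Col1a2, Col3a1 and Col14a1.

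Nanos3 is needed for germ cells to survive, and spermatid markers were close to 0 in the N3KO samples. Cells sorted from N3KO testes had higher levels of Col1a1, Col8a2, Col17a1, Col18a1, Col4a3 and Col4a4 than cells sorted from WT testes, and lower levels of Col9a1, Col27a1, Col26a1 and Col8a1. In all 17 of 33 collagens passed, 13 higher and 4 lower, near the background of 50.8% (29.3% higher and 21.6% lower). The median difference was 0.53 over the collagens and 0.13 over all genes. Scaling moved the split: 17 and 3 with quantile scaling, 22 and 3 with the median of each array, and 12 and 0 with normexp, with medians of 0.253, 0.689 and 0.31 over all genes. When only the arrays compared entered the fit, 6 collagens passed, beside 4318 of 21482 genes.

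Col1a1 was at -2.06 and -2.49 in WT and at 0.62 and 2.16 in N3KO cells, a difference of 3.67 ± 0.45 (adjusted p = 0.000581, 12.7-fold). Its 2 N3KO arrays differed by more than the WT arrays did, as did those of Col1a2 (3.96 and 6.31, against 3 and 3.33 in WT; 1.97 ± 0.65, adjusted p = 0.0403). In each case the groups did not overlap. Col8a2, a chain of type VIII collagen, was not well above background in WT cells and was at -4.26 and -3.65 in N3KO cells, at least 4.57-fold higher (adjusted p = 0.000179), and normexp ended that call (1.22). Col18a1 was at 2.75 and 3.04 against 3.89 and 3.99 (1.05 ± 0.12, adjusted p = 0.000375, 2.07-fold). Col17a1 was at -2.63 and -2.24 against -0.8 and 0.08 (2.08 ± 0.27, adjusted p = 0.000828).

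The paired network chains Col4a3 and Col4a4 were both higher in N3KO cells, by 1.3 ± 0.27 (adjusted p = 0.00667) and 0.79 ± 0.1 (adjusted p = 0.000671), and each lost the call when only these 4 arrays were fitted. Col4a1 (0.33, adjusted p = 0.488), Col4a2 (0.26, adjusted p = 0.149), Col4a5 (0.69, adjusted p = 0.0686) and Col4a6 (0.53, adjusted p = 0.184) did not pass. Col6a2 rose by 1.6 ± 0.36 (adjusted p = 0.00905), and Col6a1 was higher by 1.45 ± 0.55 without passing (adjusted p = 0.0642).

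Col9a1 was at -3.95 and -4.07 in WT cells and not well above background in N3KO cells, at least 5.96-fold lower (adjusted p = 3.59e-05), and Col27a1 was at -3.62 and -3.8 against -5.54 and -6.74 (-2.43 ± 0.36, adjusted p = 0.0015). Both differences changed sign with normexp, to 0.56 and 0.16. Col26a1 was at -1.14 and -0.26 against -5.36 and -2.62 (-3.29 ± 0.79, adjusted p = 0.0124). It lost the call with normexp (-1.42), when only these arrays were fitted, and without WT replicate 2 (-2.85). Col8a1 (-1 ± 0.31, adjusted p = 0.0328) lost its call in 7 of 13 alternative settings, among them the omission of WT replicate 1 (-0.75) or N3KO replicate 2 (-0.53). Col9a1 and Col27a1 kept their calls in each alternative run other than normexp.

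Markers of other cells moved as well. Macrophage markers rose in 5 of 5 genes, from sums of 3.64 to 6.61 in WT to 20.7 to 86 in N3KO cells, and fibroblast and stromal markers rose in 5 of 8, from 11.5 to 12.4 to 31.6 to 71.2. Sertoli markers rose in 7 of 13 and fell in 1, Leydig markers fell in 4 of 8, and spermatid markers fell in 5 of 5, from 435 to 691 to 0.278 to 0.344. Their part in the collagen differences was not tested. Of 28 processing enzymes 9 rose and 3 fell, of 13 basement membrane partners 8 rose and 2 fell, and of 6 degrading enzymes 2 rose. Of 13 fibril regulators 7 rose and 2 fell, with Prelp, a leucine-rich repeat proteoglycan, higher by 3.13 ± 0.45 (adjusted p = 0.00128) and Comp, a pentameric cartilage protein, lower (-6.04 ± 0.44, adjusted p = 3.9e-05). Of 9 collagen receptors 4 rose and 2 fell, with Ddr1 at 2.71 ± 0.33 (adjusted p = 0.000548) and the integrin chain Itga2 at -3.88 ± 0.42 (adjusted p = 0.000329).

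Cultured Sertoli cells had many collagens at higher levels than the sorted cells, with slide and scan day differing between them as well. Type I and type V chains, 5 of the 6 type IV chains, and Col18a1, Col16a1 and Col14a1 were higher than in sorted WT cells, and Col9a1, Col23a1, Col19a1, Col11a2, Col26a1 and Col13a1 were lower. In all 26 of 35 collagens passed, 20 higher and 6 lower, beside a background of 74.9% (32.9% higher and 42% lower). The median difference was 1.28 over the collagens and -0.17 over all genes. With quantile scaling the split was 25 and 4 and with median scaling 26 and 3, with medians of 0.118 and 0.754 over all genes, and with normexp it was 19 and 2. The network class had 7 of 8 members higher and 0 lower, the fibrillar class 6 higher and 1 lower of 10, and the FACIT class 3 higher and 2 lower of 6.

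Col1a1 was at -2.06 and -2.49 in sorted WT cells and at 3.77 and 4.03 in cultured cells with vehicle, higher by 6.18 ± 0.45 (adjusted p = 2.07e-05, 72.4-fold). The other 2 Col1a1 probes gave 6.49 and 0.59, so its fold depends on the probe, and the mean of its detected probes gave 4.42. Col5a2 was at -3.5 and -3.56 against 1.3 and 1.59 (4.97 ± 0.32, adjusted p = 1.15e-05, 31.4-fold). Both fibrillar chains were also higher in culture than in whole testes on every array. Col18a1 was at 2.75 and 3.04 against 6.37 and 6.35 (3.46 ± 0.12, adjusted p = 8.12e-07, 11-fold). Col16a1 was at 1.77 and 1.49 against 4.72 and 4.75 (3.11 ± 0.26, adjusted p = 4.23e-05, 8.62-fold), which put it next to its whole testes level of 4.82 and 4.96. Col8a2 was at least 12.5-fold higher (adjusted p = 1.25e-05).

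Col4a2 rose by 1.99 ± 0.14 (adjusted p = 1.59e-05) and Col4a1 by 2.65 ± 0.37 (adjusted p = 0.000531, 6.3-fold), from 0.94 and 0.47 to 3.28 and 3.44. Col4a5 (1.96 ± 0.27, adjusted p = 0.000473), Col4a3 (1.08 ± 0.27, adjusted p = 0.00904) and Col4a6 (0.84 ± 0.29, adjusted p = 0.0402) also rose, so that 5 of the 6 type IV chains passed. Col4a4 (0.24, adjusted p = 0.0668) did not. Col1a2 rose by 1.93 ± 0.65 (adjusted p = 0.0301) and Col6a2 by 2.49 ± 0.36 (adjusted p = 0.000616), while Col6a1 (-0.4, adjusted p = 0.526) did not pass.

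Among the falls, Col9a1 was not well above background in culture and at least 9.11-fold lower (adjusted p = 3.21e-05), and Col19a1, a FACIT, was at -3.97 and -4.91 against background and at least 11.9-fold lower (adjusted p = 0.000851). Col23a1 was at -2.98 and -3.36 against -6.07 and -5.75 (-2.74 ± 0.25, adjusted p = 5.74e-05). With normexp none of these 3 calls held, at -0.51, -0.43 and -0.84. Col11a2, a minor fibrillar chain, differed by -1 ± 0.16 (adjusted p = 0.00102) and by 0.03 with quantile scaling. Col26a1 (-2.81 ± 0.79, adjusted p = 0.0148) lost its call with median scaling and without WT replicate 2 or vehicle replicate 1 (-2.37 and -2.69). Col13a1 (-1.51 ± 0.48, adjusted p = 0.0237) lost it in 6 alternative settings, among them the omission of WT replicate 1 or of either vehicle array.

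Against sorted N3KO cells, which share the cultured vehicle arrays as the other side of the comparison, 22 of 33 collagens passed, 16 higher and 6 lower, beside a background of 69% (33.1% and 35.9%). The median was 1.26 over the collagens and -0.03 over all genes, and median scaling gave 17 and 3. Col18a1 was higher by 2.42 ± 0.12 (adjusted p = 5.73e-06, 5.34-fold), Col16a1 by 3.58 ± 0.26 (adjusted p = 3.04e-05, 12-fold), Col4a2 by 1.73 ± 0.13 (adjusted p = 4.13e-05), Col5a2 by 3.79 ± 0.32 (adjusted p = 5.62e-05) and Col5a3 by 2.29 ± 0.24 (adjusted p = 0.000161). Col28a1, which was not well above background in N3KO cells, was at least 2.59-fold higher (adjusted p = 5.92e-05), and with normexp it passed in the opposite direction (-1.03, adjusted p = 0.0418). Col1a1 was higher by 2.51 ± 0.45 (adjusted p = 0.00203), whereas Col1a2 (-0.04, adjusted p = 0.96) was not past the threshold, with 4.98 and 5.21 in culture between the 2 N3KO values of 3.96 and 6.31.

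Col23a1 (-2.61 ± 0.24, adjusted p = 9.57e-05), Col11a2 (-1.48 ± 0.16, adjusted p = 0.000168), Col4a4 (-0.55 ± 0.1, adjusted p = 0.00209), Col13a1 (-1.61 ± 0.48, adjusted p = 0.0197), Col6a1 (-1.85 ± 0.55, adjusted p = 0.0198) and Col2a1 (-1.52 ± 0.57, adjusted p = 0.0463) were lower in culture than in N3KO cells. Each of the 6 lost its call in at least 1 alternative setting. Col13a1, Col6a1 and Col2a1 lost it without either vehicle array. Col23a1 lost it with normexp only (-0.80).

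Culture also differed in the cells' markers. In cultured cells with vehicle the Leydig markers were lower than in sorted WT cells in 8 of 8 genes, the endothelial markers in 7 of 7 (0.74 to 0.756, with Tek and Vwf not above background), the macrophage markers in 4 of 5, with 1 higher, and the spermatid markers in 5 of 5. Sertoli markers were higher in 9 of 13 and lower in 2, fibroblast and stromal markers summed to 23.9 to 24.9 (3 of 8 higher and 3 lower), and peritubular myoid markers to 26 to 27.4 (1 of 9 higher and 2 lower) against 19.5 to 26.5. Against N3KO cells the Leydig markers were lower in 8 of 8, the endothelial markers in 6 of 7, the macrophage markers in 4 of 5, the fibroblast and stromal markers in 5 of 8 (1 higher) and the peritubular myoid markers in 4 of 9 (2 higher). Sertoli markers were higher in 7 of 13 and lower in 4, and spermatocyte markers were higher in 5 of 5. The part of these cells in the collagen differences was not tested. Of 17 fibril regulators 10 rose and 2 fell, with the matrix proteins Tnc and Fbln2 higher by 7.75 ± 0.45 (adjusted p = 7.62e-06) and 6.88 ± 0.21 (adjusted p = 5.18e-07). Of 30 processing enzymes 17 rose and 9 fell, with Plod2 at 2.63 ± 0.14 (adjusted p = 5.48e-06), the cross-linking oxidase Loxl1 at 2.09 ± 0.18 (adjusted p = 4.3e-05) and Creb3l1 at -2.29 ± 0.15 (adjusted p = 1.46e-05). Of 7 degrading enzymes 5 rose and 1 fell, with the gelatinase Mmp2 at 5.99 ± 0.33 (adjusted p = 5.66e-06). Of 10 receptors 5 rose and 4 fell. Basement membrane partners split 6 and 6 of 13, with the linker Nid2 at -4.02 ± 0.16 (adjusted p = 1.38e-06).

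With retinoic acid 2 collagens passed in the cultured cells. Col9a2, a chain of type IX collagen, rose 3.7-fold, and Col4a4 rose 1.41-fold, and these were the 2 of 33 that passed, beside a background of 5.49% of all genes (3.51% higher and 1.98% lower). The members' share of 6.06% was near that background, so the count is not a result about collagens as a group. At an unadjusted p under 0.05 there were 7. With only the vehicle and RA arrays in the fit, 14 passed, 6 higher and 8 lower, while 7235 of 20086 genes passed in all. With all arrays in 1 model 5 passed, 3 higher and 2 lower, beside 1438 of 20086 genes. The median difference was -0.17 over the collagens and 0 over all genes.

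Col9a2 was at -3.39 and -3.44 with vehicle and at -1.51 and -1.54 with RA (1.89 ± 0.15, adjusted p = 0.00107), and the groups did not overlap. With normexp the difference was 1.07 and the call was lost. Col4a4 was at -1.03 and -0.94 against -0.49 and -0.49 (0.5 ± 0.1, adjusted p = 0.0341). It lost the call in 8 of 13 alternatives, among them the omission of any of the 4 arrays (differences of 0.45 to 0.54) and the replicate block (adjusted p = 0.0595). Its partner Col4a3 was at -3.47 and -3.25 against -2.56 and -2.36 without passing (0.89, adjusted p = 0.128). Col14a1 was at 0.87 and 0.9 with vehicle and at -1.21 and -1.08 with RA, without overlap, and its difference of -2.03 ± 0.66 had an adjusted p of 0.159 in the fit that shares 1 spread over 5 groups.

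Of the chains that were higher in culture than in sorted WT cells, Col18a1 was at 6.37 and 6.35 against 6.4 and 6.37 (0.02, adjusted p = 0.967), Col4a1 at 3.28 and 3.44 against 3.36 and 3.4 (0.02, adjusted p = 0.993) and Col1a1 at 3.77 and 4.03 against 3.85 and 3.78 (-0.09, adjusted p = 0.967). Col1a2 (-0.38, adjusted p = 0.863), Col4a2 (0.29, adjusted p = 0.32), Col6a1 (-0.73, adjusted p = 0.593) and Col6a2 (-0.77, adjusted p = 0.324) did not pass, nor did Col4a5 (-0.05) and Col4a6 (0.06). A p that misses the threshold does not show that the levels were equal.

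**Figure D4:**
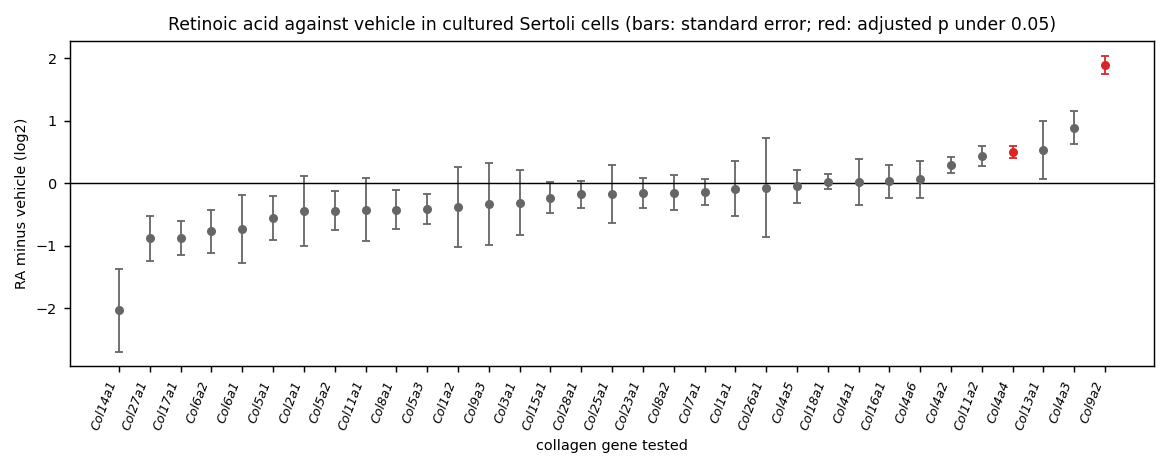
The horizontal axis lists the 33 collagen genes tested in cultured Sertoli cells in order of their difference, and the vertical axis gives RA minus vehicle (log2) with its standard error from the fit, n = 2 arrays a group. The 2 genes past the threshold, Col4a4 (0.5) and Col9a2 (1.89), are in red, and Col14a1 (-2.03) has the lowest value and a wide error.

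Around the collagens, 3 of 29 processing enzymes passed with RA. The prolyl hydroxylase subunit P4ha1 rose by 0.56 ± 0.09 (adjusted p = 0.0178), while P4ha3 (-2.02 ± 0.21, adjusted p = 0.00269) and Plod2 (-0.88 ± 0.14, adjusted p = 0.0149) fell. Of 17 fibril regulators 3 rose and 0 fell, namely Ogn (2.96 ± 0.23, adjusted p = 0.000883), Fmod (1.98 ± 0.23, adjusted p = 0.00418) and Fbln1 (1.09 ± 0.21, adjusted p = 0.0319), of which Ogn and Fmod are small leucine-rich proteoglycans that bind collagen fibrils. Of 7 degrading enzymes Mmp15 rose (2.98 ± 0.36, adjusted p = 0.00512) and Mmp14 fell (-0.89 ± 0.1, adjusted p = 0.00457). Of 12 basement membrane partners Nid2 rose (0.71 ± 0.15, adjusted p = 0.0478), and of 8 receptors 0 passed with limma. The fibroblast and stromal markers summed to 23.9 to 24.9 with vehicle and 14.7 with RA, with 0 of 8 past the threshold. Spermatogonial markers summed to 28.5 to 30 and 91.6 to 91.9, with 1 of 5 higher, and Sertoli markers to 86.7 to 86.9 and 113, with 2 of 13 higher. The spermatogonial sum was also 22.9 to 43 in sorted N3KO cells, where Nanos3 and Dazl were not above background. It is therefore not a measure of spermatogonia alone. The part of the cells behind these markers in the RA differences was not tested.

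Untreated tubules had lower levels than whole testes of several basement membrane chains, and higher levels of Col17a1, Col8a2 and Col4a3. Tubules and testes also differed in slide and scan day. In all 18 of 35 collagens passed, 3 higher and 15 lower, beside a background of 52.9% (16.8% higher and 36.1% lower). The median was -0.36 over the collagens and -0.24 over all genes. The split was 6 and 13 with quantile scaling, 8 and 11 with median scaling and 5 and 7 with normexp, with medians of -0.08, 0.073 and 0.117 over all genes. Without whole testes replicate 1, 11 collagens passed, and without replicate 2, 12 did.

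Col4a2 was at -0.37 and -0.44 in whole testes and between -1.82 and -1.29 on the 8 untreated tubule arrays (-1.13 ± 0.15, adjusted p = 4.67e-06), and Col4a1 at -1.41 and -1.46 against -2.64 to -2.02 (-0.79 ± 0.22, adjusted p = 0.00632). For each chain the groups did not overlap. Col4a5 (-1.71 ± 0.35, adjusted p = 0.000514), Col4a6 (-1.43 ± 0.24, adjusted p = 0.000104, with 1 whole testes array) and Col4a4 (-0.47 ± 0.1, adjusted p = 0.000821) were lower too, and Col4a3 was higher by 1.05 ± 0.2 (adjusted p = 0.000233). Col17a1 was at -1.97 and -1.92 against -1.43 to 0.64 (1.62 ± 0.19, adjusted p = 1.35e-06) and Col8a2 at -5.4 and -5.44 against -4.68 to -3.77 (1.29 ± 0.2, adjusted p = 3.5e-05), again without overlap.

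Col9a2 (-0.91 ± 0.13, adjusted p = 1.33e-05), Col23a1 (-1.18 ± 0.19, adjusted p = 4.29e-05) and Col25a1, a transmembrane collagen of neurons (-1.5 ± 0.29, adjusted p = 0.000328), were lower, and the arrays of Col23a1 overlapped between the groups. Col9a2, Col23a1, Col4a5 and Col4a6 lost the call with normexp, at -0.16, -0.56, -0.19 and -0.37. Col25a1 changed sign with it (0.08) and was at -0.68 without whole testes replicate 1. Col1a1 (-0.27, adjusted p = 0.359), Col1a2 (-0.77, adjusted p = 0.0562) and Col6a1 (-0.62, adjusted p = 0.0875) did not pass, and Col6a2 did (-0.65, adjusted p = 0.03). Beside these, Leydig markers fell in 7 of 7 genes tested, from 203 to 207 to a range of 12.3 to 37.9, macrophage markers in 4 of 5, endothelial markers in 2 of 7 and peritubular myoid markers in 3 of 7. Their part was not tested. Of the collagen partner lists, processing enzymes split 3 higher and 12 lower of 24, basement membrane partners 1 and 5 of 12, fibril regulators 3 and 6 of 16, degrading enzymes 1 and 3 of 5 and receptors 1 and 2 of 9.

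Tubules from testes injected with the Venus control virus also differed from untreated tubules, in 25 of 36 collagens, 16 higher and 9 lower, near the background of 67% (36.6% higher and 30.4% lower). With normexp the split was 9 and 20, and the median over all genes moved from 0.063 to -0.322. Every array of these arms lay on other slides and scan days than the untreated ones, so virus, slide and day cannot be told apart. Col4a1 was between -2.64 and -2.02 untreated and between -1.58 and -0.66 with Venus (1 ± 0.11, adjusted p = 1.41e-06). Col2a1 was higher by 0.99 ± 0.09 (adjusted p = 2.42e-07), and Col17a1 was lower, from a range of -1.43 to 0.64 to one of -2.77 to -1.18 (-1.85 ± 0.11, adjusted p = 2.25e-09), with -0.45 for another probe. Col16a1 differed by -1.06 ± 0.1 (adjusted p = 6.04e-07). Col5a2 was not well above background in the untreated arm and was at least 1.96-fold higher with Venus (adjusted p = 4.67e-06), but with normexp Col5a2 and Col6a2 changed sign, to -0.27 and -0.19, and Col6a1 (0.94 ± 0.12) was at 0.15. Col5a1 differed by -1.09 ± 0.17 (adjusted p = 6.11e-05), with 0.67 for its other probe. Sertoli markers were higher in 12 of 13 genes, peritubular myoid markers in 6 of 9 and macrophage markers in 4 of 5, and their part was not tested. Of 26 processing enzymes 15 rose and 5 fell, with P4ha2, a prolyl hydroxylase subunit, higher by 2.12 (adjusted p = 1.6e-09). Basement membrane partners split 5 higher and 4 lower of 13, fibril regulators 7 and 4 of 17, receptors 5 and 2 of 10 and degrading enzymes 3 and 1 of 7.

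Against the Venus control, which shares its arrays with the comparison above, dnRARa tubules had lower Col18a1 in every stage group. The other 3 that passed had larger adjusted p-values: Col23a1 and Col1a2 were lower and Col4a5 was higher. In all 4 of 36 passed, or 11.1%, near the background of 12.2% of all genes (8.11% higher and 4.05% lower), so the count says nothing particular about collagens. The count depends on the arrays fitted and on how slide and scan day enter the fit. With the virus arrays alone 8 of 36 passed, 4 higher and 4 lower, beside 4638 of 24121 genes. With scan day as a block as well 11 passed, 6 higher and 5 lower, beside 6162 genes. With all tubule arrays and slide as a random block 1 passed, 0 higher and 1 lower, beside 2078 genes. In the main fit 10 had an unadjusted p under 0.05. The median difference was 0.07 over the collagens and 0.01 over all genes.

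Col18a1 was at 0.19 and 0.11 with Venus and at -0.09 and -0.49 with dnRARa in I-III, at -0.22 and -0.23 against -0.91 and -1.32 in IV-VI, at 2.09 and 1.95 against 0.89 and 1.35 in VII-VIII, and at 2.35 and 2.06 against 1.05 and 1.24 in IX-XII. In each stage group both dnRARa arrays lay below both Venus arrays. Over the stages the difference was -0.82 ± 0.13 (adjusted p = 0.00113, 1.77-fold lower). Venus and dnRARa arrays of the same replicate number were scanned on the same day, and within day the mean differences were -0.87 and -0.78, lower in 8 of 8 pairs. The Col18a1 call held in all 27 alternative settings. Venus and dnRARa arrays lay on different slides, so arm and slide cannot be told apart. The stages of a replicate shared those slides, so the 8 pairs are not 8 separate replicates. Col11a1, Col25a1, Col4a4 and Col9a2, which did not pass, were each higher in 8 of 8 pairs. The share of all genes with such agreement was not counted. Within stages, Col18a1 was the 1 collagen of 36 past the threshold in IX-XII (-1.06 ± 0.27, adjusted p = 0.0337, background 4.67%, of which 3.12% higher and 1.55% lower), and 0 of 36 passed in VII-VIII with limma (3 at an unadjusted p under 0.05, background 1.52%, of which 0.718% higher and 0.8% lower). Its stage rise remained past the threshold with dnRARa, as given above.

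Col23a1 differed by -0.4 ± 0.11 (adjusted p = 0.0309) over the stages and was lower in 6 of 8 pairs. It was at -2.46 and -2.26 in Venus IV-VI and at -3.6 and -3.82 in dnRARa IV-VI, where the groups were far apart. In VII-VIII it was at -2.64 and -2.61 against -2.57 and -1.95, with dnRARa the higher. Its step from IV-VI to VII-VIII was -0.67 untreated (adjusted p = 0.024), -0.26 with Venus (not past the threshold) and 1.45 ± 0.22 with dnRARa (adjusted p = 0.000193), and within day it was -0.17 and -0.35 with Venus and 1.04 and 1.87 with dnRARa. The interaction of dnRARa with stage had an adjusted p of 0.0752 for Col23a1 (F = 10). The same test was past the threshold when the virus arrays alone were fitted with scan day as a block (adjusted p = 0.0463), when only the arrays compared were fitted (0.0388) and when every array had to be above background (0.0473), and far from it with the mean of the detected probes (0.947). In all 0 of 36 collagens passed the interaction test, 3 at an unadjusted p under 0.05, with a background of 0.767%.

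**Figure D5:**
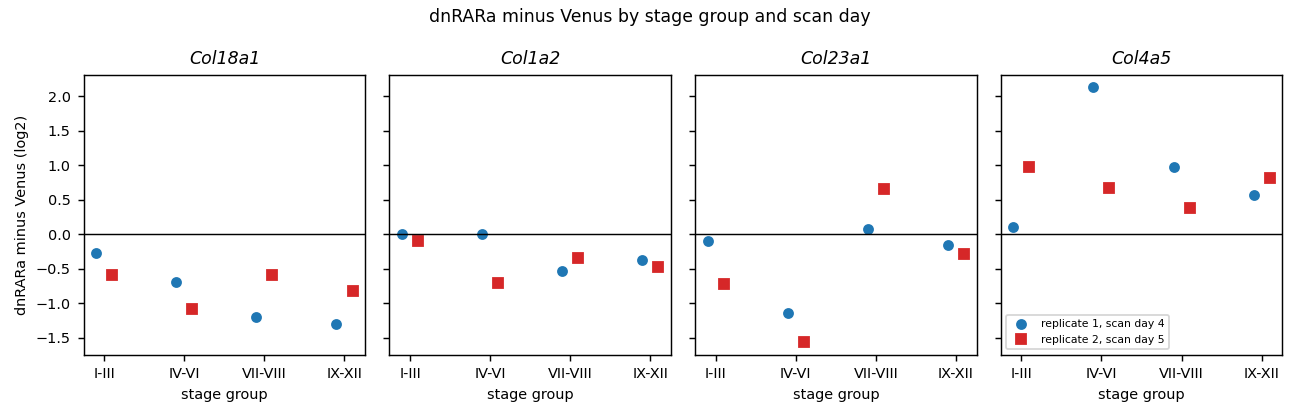
Each point is the dnRARa level minus the Venus level (log2, vertical axis) of 1 pair of arrays scanned on the same day, by stage group (horizontal axis), with circles for replicate 1 and squares for replicate 2. All 8 points of Col18a1 lie below 0 and all 8 of Col4a5 above, while those of Col23a1 are lowest in IV-VI and above 0 in VII-VIII. Of the collagens not plotted, Col11a1, Col25a1, Col4a4 and Col9a2 were also higher in all 8 pairs without passing the threshold.

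Col1a2 differed by -0.32 ± 0.1 (adjusted p = 0.0445), with same-day pairs of 0 and -0.1 in I-III, 0 and -0.71 in IV-VI, -0.53 and -0.35 in VII-VIII, and -0.38 and -0.47 in IX-XII. Its partner Col1a1 differed by -0.03 (adjusted p = 0.879), with day means of 0.26 and -0.33 that had opposite signs. Col4a5 was between -6.23 and -5.33 on the Venus arrays and between -5.45 and -3.33 on the dnRARa arrays (0.83 ± 0.24, adjusted p = 0.0402), higher in 8 of 8 pairs, with the largest pair difference, 2.13, in IV-VI. Col1a2 and Col4a5 each lost the call in 18 of 27 alternatives and Col23a1 in 14 of 27. All 3 lost it with slide as a random block (adjusted p = 0.0841, 0.0868 and 0.0679 for Col1a2, Col4a5 and Col23a1), and all 3 kept it with scan day as a block (0.0134, 0.0132 and 0.0208). Leaving out 1 array ended the Col4a5 call for each array other than dnRARa I-III replicate 1 and dnRARa IV-VI replicate 2, with values of 0.66 to 0.88. It ended the Col1a2 call (-0.35 to -0.26) for each array other than Venus IV-VI replicate 1, dnRARa IV-VI replicate 1 and dnRARa VII-VIII replicate 2. It ended the Col23a1 call (-0.41 to -0.33) for replicate 2 of Venus I-III and IV-VI, both replicates of Venus VII-VIII and IX-XII, replicate 2 of dnRARa I-III, IV-VI and IX-XII, and replicate 1 of dnRARa VII-VIII. Col4a6 (0.19), Col4a4 (0.15), Col4a1 (-0.17, adjusted p = 0.346), Col4a2 (-0.26, adjusted p = 0.111), Col6a1 (-0.26, adjusted p = 0.162) and Col6a2 (0.09) did not pass.

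Beside these differences, 3 of 9 peritubular myoid markers fell with dnRARa, and their sum was 26.8 to 47.3 over the Venus groups and 19.1 to 41.5 over the dnRARa groups. Sertoli markers rose in 1 and fell in 2 of 13, with sums of 19.1 to 41.3 and 24.6 to 43.4, and their part was not tested. Of 26 processing enzymes 2 rose and 4 fell, among them the hydroxylase subunit P4ha2 (0.72 ± 0.12, adjusted p = 0.00118), P3h4, a partner of lysyl hydroxylase (-0.5 ± 0.07, adjusted p = 0.000582), and Mia3 (-0.37 ± 0.08, adjusted p = 0.00582). Of 13 basement membrane partners the laminin chain Lamb2 fell by 0.46 ± 0.07 (SE, adjusted p = 0.000562). Of 7 degrading enzymes Mmp14 (0.56 ± 0.1, adjusted p = 0.00265) and Ctsl (0.45 ± 0.1, adjusted p = 0.01) rose and Mmp15 fell (-1.18 ± 0.18, adjusted p = 0.000822), and of 10 receptors 0 passed with limma. Of 17 fibril regulators Fbln1 fell by 0.38 ± 0.09 (SE, adjusted p = 0.0147).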

How the data were processed

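The deposited files are scanner outputs of 34 single-colour Agilent arrays, labelled with Cy3, made with Feature Extraction 9.5 per the submitters' processing notes (9.5.3.1 per the file headers). The authors deposited each spot's processed signal, an intensity that the software had background-subtracted and detrended per the file headers, with flags for outliers, saturation and signal well above background. The deposited series values equalled the processed signal at all 45018 spots and were not used again. As an alternative, the deposited raw median intensities of spot and local background were corrected with normexp, offset 50.

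After 1639 control spots were left out, the 43379 others formed 41174 probes. Of these 22951 were named by accession through the RefSeq gene table, 10 by symbol and 57 by synonym, and 18156 had no symbol and kept the array's name. Outlier spots (32 to 274 an array) were removed. Levels are log2 processed signals, less the 75th percentile of each array, and their precision is limited by 2 arrays a group.

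limma 3.58.1 in R 4.3.3 fitted the 10 testis and Sertoli arrays in 1 model, the 24 tubule arrays in another, and all 34 for tubules against testes. A gene entered a comparison if 1 or more of the groups compared had it flagged well above background on both of their arrays. Adjusted p-values are Benjamini-Hochberg over all genes tested. The fit was also run on simulated data for sorted WT cells against whole testes and for dnRARa against Venus. Arrays varied independently there, so that run does not cover deviations shared by same-numbered arrays.

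The members and lists were chosen with earlier results of these data known. Text names up to 6 rises and 6 falls of smallest adjusted p in each planned comparison, the chain partners Col1a1/Col1a2, Col4a1 to Col4a6 and Col6a1/Col6a2 whatever they did, and up to 3 genes of each partner list. The 9 stage-step and within-stage comparisons and the scan-day block were added after the values had been seen, and other members named in them were chosen with their values known. Same-numbered untreated stages deviated together (correlations of 0.21 to 0.7 in 6 of 6 pairs of groups, 13162 genes). In the virus arms the number is also the scan day (-0.08 to 0.68, over 0.1 in 20 of 28), and in the testis and Sertoli groups it was -0.09 to 0.14, so the number was used as a block only in an alternative. Alternatives were scaling by quantiles or the median, normexp, 2 other detection filters, the mean of detected probes, other sets of arrays in the fit, the replicate number or slide as a block, and each array left out.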

Additional observations from a re-analysis of the deposited data

Results flagged for a closer look

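Col23a1, the transmembrane collagen, had a measured step from stages IV-VI to VII-VIII that went opposite ways in the arms. The step was -0.67 in untreated tubules, -0.26 with Venus and 1.45 with dnRARa. It is listed here because the arrays of these stages did not overlap within an arm, the direction was opposite between arms, and the step passed in some arm. Within day the step was -0.17 and -0.35 with Venus and 1.04 and 1.87 with dnRARa. All members were searched for steps of opposite direction, so these directions are the reason for the listing and not further evidence. The interaction of dnRARa with stage had an adjusted p of 0.0752 (limma), and this step alone was not tested between the arms. The interaction passed in some alternative settings and was far from the threshold with the mean of the detected probes, as given above.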

How the results depend on the processing

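Of 877 recomputed values of single genes, with no array left out, 806 kept their direction and side of the threshold, 63 lost the call and 8 changed sign, and of 713 with 1 array left out 657 kept both, 56 lost the call and 0 changed sign. These values belong to 95 calls, up to 6 rises and 6 falls of smallest adjusted p in each planned comparison. For the stage effect they are the F tests of smallest adjusted p, which have no direction. Weaker calls are not in these counts. With normexp 22 of 95 lost the call and 7 changed sign: Col9a1 (0.56) and Col27a1 (0.16) in N3KO against WT cells, Col28a1 (-1.03) in culture against N3KO cells, Col25a1 (0.08) in tubules against testes, Col24a1 (0.11) in late against early stages, and Col5a2 (-0.27) and Col6a2 (-0.19) in Venus against untreated tubules. Quantile scaling turned Col11a2 in culture against WT cells (0.03). Of the counts of collagens past the threshold, 17 in N3KO against WT cells became 6 with only those arrays fitted and 11 to 24 with 1 array left out. The 2 with RA became 1 with median scaling, 0 with normexp and 1 without the detection filter. This count became 14 with only those arrays and 5 with all arrays in 1 model, beside 7235 and 1438 of 20086 genes. With the replicate block the RA count was 1 (Col4a4, adjusted p = 0.0595, limma, the 1 call of a named gene that it ended), dnRARa against Venus gave 6, and no other count moved by over 1.5 times. The 18 in tubules against testes became 10 when every array had to be above background and 11 to 20 with 1 array left out. The 4 in dnRARa against Venus became 2 with quantile scaling, 1 with normexp and 1 without the filter. This count became 8 with only those arrays, 11 with only those arrays and scan day as a block, and 1 with slide as a random block. The 0 of the interaction became 1 with every array above background, with only those arrays and with scan day as a block, and 0 to 1 with 1 array left out, the 1 being without dnRARa VII-VIII replicate 1. Low signals are limited by 54.89% to 74.42% of spots above background. The cause was not tested.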
